A study of Homo sapiens with 9 samples.

Results

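The zinc finger genes of chromosome 19 were taken as every gene with a numbered ZNF symbol that the deposited files place on that chromosome. There were 205 of them among 33058 reference genes, on 185 features of the files, since 14 features joined more than 1 of these genes and their values cannot be told apart. With genes of other kinds counted too, 37 of the 185 joined more than 1 reference gene, and the same limit holds for them. RNA was measured in 9 libraries of A549, a human lung cancer cell line, 48 h after transfection. The groups were a control siRNA (siCtrl) and 2 siRNAs against Cyclin K (siCyclinK#1 and siCyclinK#2), with 3 libraries each, and no other agent or genotype was given. The labels call the samples independent without saying what was repeated, so p-values measure the spread between these libraries, which may be technical. Cyclin K is the partner of CDK12 and CDK13, kinases that phosphorylate RNA polymerase II during elongation.

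Zinc finger proteins of this kind carry arrays of C2H2 fingers, each of which holds a zinc ion and contacts a few bases of DNA. Most of those on chromosome 19 also carry a KRAB domain, which binds the scaffold protein TRIM28 and through it brings histone H3 lysine 9 methyltransferases and HP1 proteins to the bound site. The genes arose by repeated duplication, lie in runs of neighbours, and are best known for silencing transposable elements.

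The symbols were first checked against the annotation and the encoded proteins. All 205 genes were in GENCODE 29, 199 of them protein coding and 6 pseudogenes, with 111 on the plus strand and 94 on the minus strand. The translated proteins held a median of 13 C2H2 finger patterns and at most 39. Of the 199, 166 held at least 1 of a pair of KRAB sequence patterns and 33 held neither. The genes spanned 2.93 to 485 kb, with a median of 23.0 kb.

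RefSeq promoter windows (GRCh38.p14, 250 bases before to 50 after a transcription start) were found for 177 of the 205 genes, 219 windows in all. The motif CCGGAAG, the core bound by ETS factors, stood on either strand of 37.4% of them, against 10.3% of all 35093 windows and 28.5% of the windows of numbered ZNF genes on other chromosomes. A longer motif, ACTAC followed by any 2 bases and TTCCC, was picked after the windows had been read. It stood in 19.2% of the windows, against 1.00% of all windows and 9.38% of those of the other ZNF genes. Both motifs hold the letters GGAA on 1 strand and were counted separately. The SP1 box GGGCGGG stood in 45.2% (33.1% of all windows), the NFY box CCAAT in 45.7% (34.6%), the YY1 motif AAGATGGC in 6.39% (2.89%), the NRF1 half-site GCATGCGC in 4.57% (3.05%) and the TATA box TATAAA in 3.20% (11.5%). The windows had a median of 20 CpG dinucleotides, against 14 in all windows. Genes copied from each other share such letters by descent, and a match describes the sequence only. The windows of the 2 largest rises, of ZNF274 and of the largest fall among called genes are shown in the sense of the gene, so that these letters can be set beside the values given further on, with the ETS core and the longer motif in capitals. They lie at chr19:44212282-44212581 on the plus strand for ZNF227, at chr19:58380981-58381280 on the minus strand for ZNF837, at chr19:58182811-58183110 on the plus strand for ZNF274 and at chr19:55624517-55624816 on the minus strand for ZNF784.
ZNF227: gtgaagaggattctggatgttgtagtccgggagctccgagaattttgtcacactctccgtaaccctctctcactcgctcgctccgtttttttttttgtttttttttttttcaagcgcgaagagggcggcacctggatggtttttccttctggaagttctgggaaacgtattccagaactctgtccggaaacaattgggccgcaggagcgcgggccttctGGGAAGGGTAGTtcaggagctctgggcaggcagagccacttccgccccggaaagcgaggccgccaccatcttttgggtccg
ZNF837: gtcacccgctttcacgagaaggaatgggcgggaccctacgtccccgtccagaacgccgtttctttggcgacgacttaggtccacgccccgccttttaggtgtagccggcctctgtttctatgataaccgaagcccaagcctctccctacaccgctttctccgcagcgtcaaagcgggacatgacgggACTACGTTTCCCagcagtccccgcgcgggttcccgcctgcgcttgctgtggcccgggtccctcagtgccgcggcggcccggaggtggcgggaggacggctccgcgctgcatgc
ZNF274: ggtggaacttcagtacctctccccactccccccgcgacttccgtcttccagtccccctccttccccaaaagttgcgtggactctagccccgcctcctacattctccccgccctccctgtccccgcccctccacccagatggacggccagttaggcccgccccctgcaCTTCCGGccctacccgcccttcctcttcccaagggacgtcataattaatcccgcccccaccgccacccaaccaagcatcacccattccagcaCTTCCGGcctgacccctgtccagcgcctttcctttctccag
ZNF784: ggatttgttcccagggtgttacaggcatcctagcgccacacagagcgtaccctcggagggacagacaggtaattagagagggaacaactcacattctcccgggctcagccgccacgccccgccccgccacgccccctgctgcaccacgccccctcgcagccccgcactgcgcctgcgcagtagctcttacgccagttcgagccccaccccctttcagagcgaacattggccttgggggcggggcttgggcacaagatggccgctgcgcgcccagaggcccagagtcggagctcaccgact
ZNF227 and ZNF837 each held the longer motif, ZNF274 held the ETS core at 2 places, and ZNF784 held neither. Among tested features with a window, the 31 with the longer motif had a median log2 fold change of 0.36 over both siRNAs, with 10 called higher and 1 lower. The 95 without it had 0.30, with 24 higher and 5 lower. By the same calls, described further on, 26.8% of all tested zinc finger features were higher and 4.35% lower, beside 17.0% and 11.5% of all features. The motif was picked after values had been seen, and this split was not tested.

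The depth recovered from the FPKM values was 31333749 to 33767961 reads per library. CCNK, the targeted gene, fell from 7.02 ± 0.107 FPKM (SD, n = 3) with siCtrl to 0.809 ± 0.0857 with siCyclinK#1 and 0.844 ± 0.0661 with siCyclinK#2. In whole cultures fewer cells of a type and less RNA per cell cannot be told apart. The keratins KRT8 and KRT18 were high in every library (49.7 to 105 and 69.8 to 91.0 FPKM), while the epithelial genes EPCAM (at most 0.279) and KRT19 (at most 0.108) were near 0. CDH1, another epithelial gene, was at 1.49 to 1.86 FPKM with siCtrl, 2.77 to 4.60 with siCyclinK#1 and 1.19 to 2.26 with siCyclinK#2, so that the siCyclinK#1 libraries were above the others. The leukocyte gene PTPRC and the endothelial gene PECAM1 reached at most 0.0119. VWF, another endothelial gene, was at 0.0238, 0.0430 and 0.0146 FPKM with siCyclinK#1 and at 0 in the other libraries. COL1A1, a collagen listed as a fibroblast marker, was at 1.79 to 2.21 FPKM with siCtrl, 13.7 to 14.7 with siCyclinK#1 and 3.10 to 3.30 with siCyclinK#2. COL3A1 and DCN, listed with it, stayed below 0.1. Within that low range DCN too was highest with siCyclinK#1, at 0.0685 to 0.0919 FPKM, against 0.0171 to 0.0312 with siCtrl and 0.0121 to 0.0187 with siCyclinK#2. The part of such differences in the results was not tested.

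Of the 185 features, 138 (157 genes) reached an FPKM of 0.1 in 3 or more libraries and were tested. The other 47 (48 genes) reached at most 0.163 FPKM in any library. Among the tested features ZNF570 and the feature joining ZNF836 and ZNF616 passed this filter through siCyclinK libraries alone. Their direction was thus set by the filter, and counts are also given without them. ZNF846, at 0.106, 0.0803 and 0.0630 FPKM with siCtrl, also needed siCyclinK libraries to pass. It was called higher and stays in all counts below, also in those without the 2 features. With each of the 9 libraries left out in turn, its call was lost in 4 cases (limma, adjusted p up to 0.102). The median of the mean FPKM was 1.59 over the 138 and 1.34 over all 21048 features tested. Of the 138, 91 had a mean of at least 1, and 3 had a mean over 10. The summed FPKM of all the zinc finger features was 322, 325 and 333 in the siCtrl libraries, 404, 417 and 398 with siCyclinK#1, and 386, 377 and 387 with siCyclinK#2. All 6 siCyclinK libraries were above all 3 siCtrl libraries in this sum. The number of features at 0 in a library was 30 to 36 and overlapped between the groups.

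The first comparison set the 6 siCyclinK libraries against the 3 siCtrl libraries. With limma on log2(FPKM + 0.1), fitted over all 21048 features that passed the filter, 37 zinc finger features were higher and 6 were lower at a Benjamini-Hochberg adjusted p under 0.05. These were 26.8% and 4.35% of the 138 tested, beside 17.0% called higher and 11.5% called lower among all features, and 28.6% called in either direction against 31.2% of the zinc finger features. The median log2 fold change was 0.32 over the 138 and 0.06 over all features, and 103 of the 138 were above 0. Without the 2 features whose direction the filter set, 35 of 136 were higher and the median was 0.31. The 6 siCyclinK libraries were all above the 3 siCtrl libraries for 40 features (18.9% of all features did this) and all below for 10 (13.7%). The numbered ZNF genes of other chromosomes had 62 higher and 17 lower of 222 tested, with a median of 0.20. The other genes of chromosome 19 had 238 higher and 101 lower of 1126, with a median of 0.17. The plot in chromosome order shows the calls along the chromosome.

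**Figure D1:**
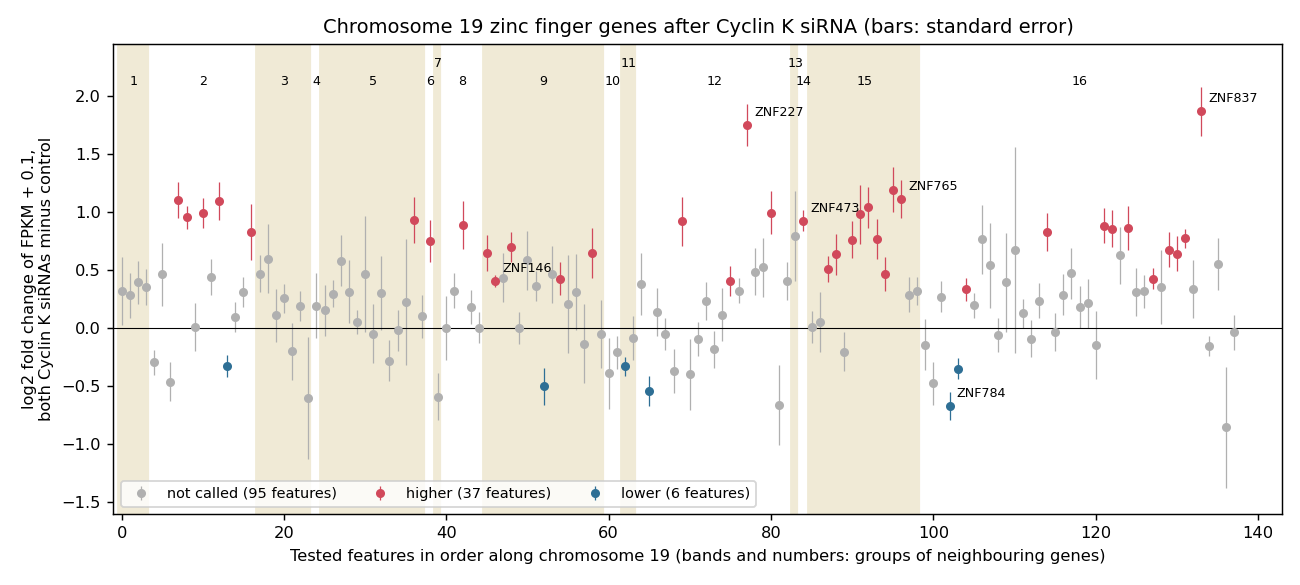
Each point is 1 of the 138 tested features in order along chromosome 19, its height the log2 fold change of FPKM + 0.1 over both Cyclin K siRNAs against siCtrl and its bar the standard error. Red points (37) and blue points (6) passed an adjusted p under 0.05, and most red points lie between 0.33 and 1.2, with ZNF227 and ZNF837 above.

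On the scale of FPKM + 0.1 the largest rises were those of ZNF837 and ZNF227. ZNF837 (ENSG00000152475, minus strand, chr19:58367618-58381060), a gene of 8 fingers in which no KRAB pattern was found, had 0.328, 0.514 and 0.431 FPKM in the siCtrl libraries, 2.14, 2.32 and 2.24 with siCyclinK#1 and 1.38, 1.57 and 1.38 with siCyclinK#2. The siCtrl values rested on 23, 34 and 29 reads. The groups did not overlap, and the siCyclinK#1 libraries were also all above the siCyclinK#2 libraries. The log2 fold change over both siRNAs was 1.87 with a standard error of 0.21 and an adjusted p of 0.000174. ZNF227 (ENSG00000131115, plus strand, chr19:44207547-44237268), a KRAB gene of 18 fingers, had 1.17, 2.18 and 2.27 FPKM with siCtrl, 6.20, 6.95 and 6.93 with siCyclinK#1 and 5.87, 6.38 and 5.65 with siCyclinK#2. The first siCtrl library stood below the others, and all 6 siCyclinK libraries were above all 3. This gave a log2 fold change of 1.75, with a standard error of 0.18 and an adjusted p of 0.000101. These were the 2 zinc finger features past a 3-fold change of FPKM + 0.1 at an unadjusted p under 0.01 (1.45% of the 138, beside 2.29% of all features). The cut-offs are those of the study's methods, which name FPKM without an added 0.1. Low genes past 3-fold in plain FPKM can thus be missed by this count. Without the first siCtrl library ZNF227 was at 1.46 on the log2 scale and no longer past 3-fold. For ZNF837 and ZNF227 the exact two-sided permutation test gave p = 0.0119, the smallest that 6 libraries against 3 allow.

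The plot of single members by library shows both.

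**Figure D2:**
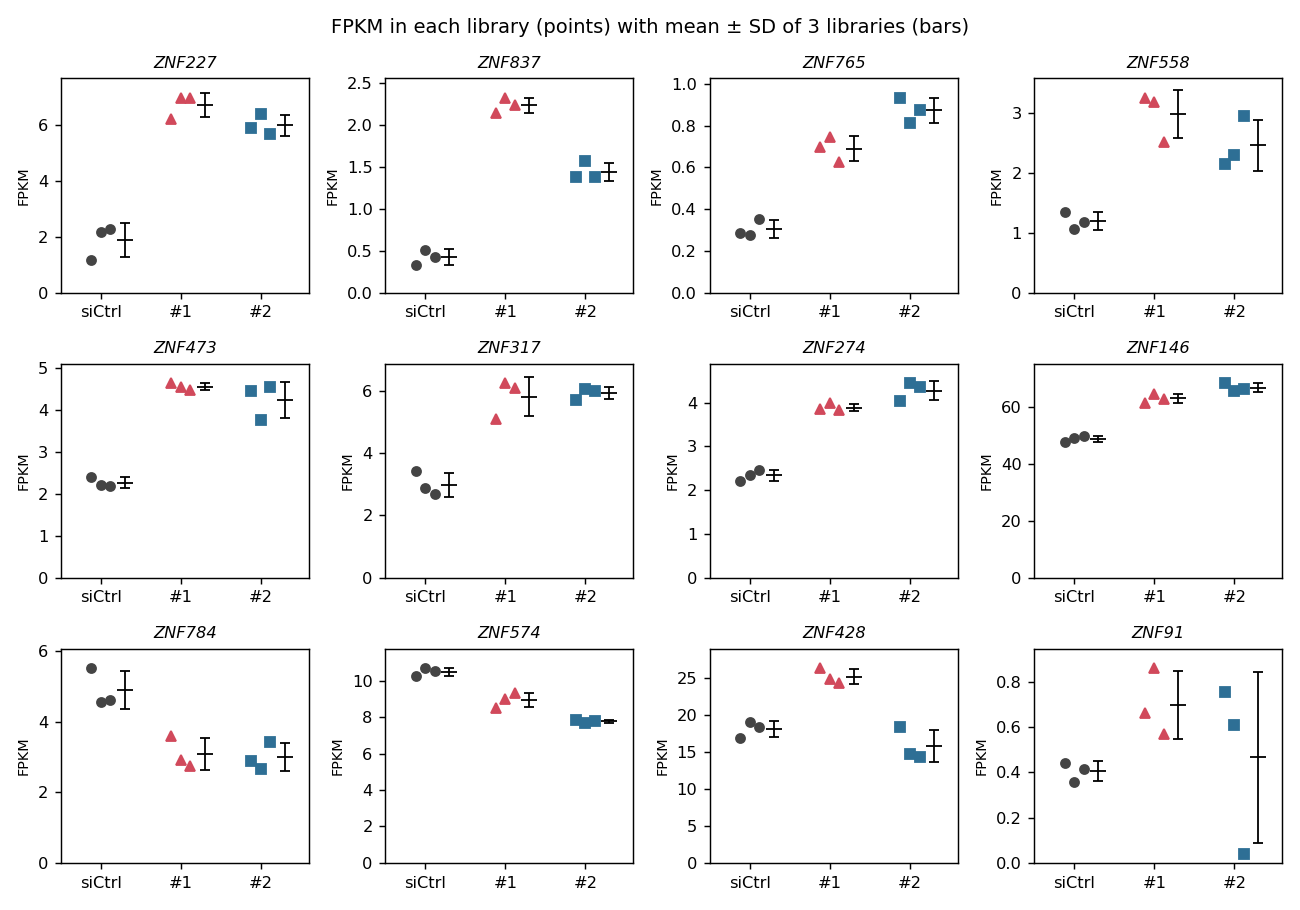
Each panel gives the FPKM of 1 gene in each library, with circles for siCtrl, triangles for siCyclinK#1 and squares for siCyclinK#2, and the mean ± SD of 3 libraries beside them. From ZNF227 to ZNF146 the siCtrl points lie below the others, in ZNF784 and ZNF574 above them, and in ZNF91 a single siCyclinK#2 library lies at 0.0392.

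The rises that followed in size were about 2-fold on the scale of FPKM + 0.1, which understates low genes, and belonged to KRAB genes. The largest of them was ZNF845, a low gene with 0.106, 0.112 and 0.201 FPKM with siCtrl, 0.383, 0.475 and 0.513 with siCyclinK#1 and 0.362, 0.476 and 0.447 with siCyclinK#2, a log2 fold change of 1.20 (adjusted p = 0.00149). All 6 siCyclinK libraries were above all 3 siCtrl libraries there. Among features with a mean of at least 0.5 FPKM, ZNF765 had 0.285, 0.277 and 0.355 FPKM with siCtrl, 0.696, 0.745 and 0.627 with siCyclinK#1 and 0.932, 0.812 and 0.875 with siCyclinK#2, a log2 fold change of 1.11 (adjusted p = 0.000773). ZNF558 had 1.36, 1.06 and 1.19 with siCtrl, 3.26, 3.19 and 2.52 with siCyclinK#1 and 2.14, 2.30 and 2.95 with siCyclinK#2, a log2 fold change of 1.11 (adjusted p = 0.000592). ZNF426 went from a mean of 0.306 FPKM to 0.841 and 0.709, and ZNF766 from 1.15 to 2.85 and 2.20. In each of these genes all 6 siCyclinK libraries were above all 3 siCtrl libraries. The feature that joins ZNF112, ZNF285 and ZNF229 with 2 other genes rose from 0.460 to 1.17 and 0.874 FPKM, and the feature of ZNF177 and ZNF559 from 0.622 to 1.43 and 1.25, and in neither can the genes be told apart. Over the 37 features called higher the log2 fold change ran from 0.33 to 1.87 with a median of 0.83.

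The falls were fewer and smaller. ZNF784 (ENSG00000179922, minus strand, chr19:55620742-55624601), a short gene of 6 fingers, had 5.51, 4.55 and 4.60 FPKM with siCtrl, 3.59, 2.90 and 2.74 with siCyclinK#1 and 2.89, 2.66 and 3.43 with siCyclinK#2. The log2 fold change came to -0.67, with a standard error of 0.12 and an adjusted p of 0.00243, and it stayed called whichever library was left out. The feature of ZNF576 and its neighbour SRRM5 had a log2 fold change of -0.54 (adjusted p = 0.012), ZNF850 one of -0.50 (0.0414), the feature of ZNF580, ZNF581 and CCDC106 one of -0.35 (0.0183), ZNF574 one of -0.33 (0.0129) and ZNF121 one of -0.32 (0.028). In all 6 the groups did not overlap, but 5 of the calls leaned on single libraries. The adjusted p was 0.0597 for ZNF576 without the first siCtrl library, 0.083 for ZNF580 and ZNF581 without the second, at most 0.0573 for ZNF574 without the second or the third, and at most 0.0966 for ZNF121 without any one of the 3 siCtrl libraries. The call of ZNF850 was lost in 7 of the 9 cases in which a library was left out (adjusted p up to 0.155). The number of lower features went from 6 to 3 without the second siCtrl library and to 10 under quantile normalization.

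The calls were then counted by KRAB pattern, span, strand and fingers, with no test of the differences. Of 108 tested features with a KRAB pattern 29 were higher and 1 was lower, with a median log2 fold change of 0.32 (27 of 106 without the 2 whose direction the filter set). Of 28 without it 8 were higher and 5 were lower, with a median of 0.30. The features without a KRAB pattern had the higher siCtrl levels, with a median of 3.81 FPKM against 1.14, and the shorter genes, with a median span of 12.9 kb against 23.1 kb. By span, 4 of the lower calls and 8 of the higher calls were among the 46 features of the shortest genes (3.12 to 16.5 kb). The 46 of middle span had 16 higher and 1 lower, and the 46 of the longest genes (28.8 to 485 kb) had 13 higher and 1 lower. The median log2 fold change was 0.18, 0.32 and 0.41 from the shortest to the longest genes. By strand, 17 of 78 features on the plus strand and 20 of 60 on the minus strand were higher, with 3 lower on each. By number of fingers the medians were 0.31, 0.36 and 0.29 from the fewest to the most.

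None of the 6 features with the highest mean FPKM held a KRAB pattern. ZNF146, whose protein of 292 residues is little more than 10 fingers, had 47.7, 49.1 and 49.6 FPKM with siCtrl, 61.5, 64.5 and 62.7 with siCyclinK#1 and 68.3, 65.6 and 66.4 with siCyclinK#2. The groups did not overlap, and the rise of 0.41 on the log2 scale was called (standard error 0.05, adjusted p = 0.000268). ZNF260 rose from 5.92 to 11.1 and 8.41 FPKM (log2 fold change 0.70, adjusted p = 0.00298). ZNF787 rose from 11.0 to 12.7 and 15.1 FPKM (0.33, adjusted p = 0.027), a call that was lost without any one of the 3 siCtrl libraries (adjusted p 0.0675 to 0.0914) and under median-ratio rescaling (0.131). ZNF428 had a mean FPKM of 18.1 with siCtrl, 25.2 with siCyclinK#1 and 15.8 with siCyclinK#2, and was not called over both (0.14, adjusted p = 0.659).

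Members with a known function were read next. ZNF274, a KRAB protein that binds the 3′ ends of zinc finger genes themselves and brings the methyltransferase SETDB1 there, had 2.22, 2.34 and 2.47 FPKM with siCtrl, 3.84, 3.98 and 3.84 with siCyclinK#1 and 4.03, 4.44 and 4.35 with siCyclinK#2. This was a log2 fold change of 0.77, with a standard error of 0.09 and an adjusted p of 0.000137, and the groups did not overlap. ZNF473, also known as ZFP100 and part of the U7 machinery that cleaves histone pre-mRNA, rose from 2.27 to 4.56 and 4.25 FPKM (0.93, adjusted p = 6.95e-05). ZNF317 rose from 2.98 to 5.81 and 5.91 FPKM (0.96, adjusted p = 9.41e-05). ZNF350, known as ZBRK1, a corepressor partner of BRCA1, rose from 1.06 to 1.59 and 1.52 FPKM (0.51, adjusted p = 0.0076). ZNF587, which silences endogenous retroviruses and here shares its feature with an unnamed gene, rose from 3.95 to 5.66 and 5.07 (0.43, adjusted p = 0.00663). ZNF160 had 0.463, 0.660 and 0.699 FPKM in the 3 groups (0.47, adjusted p = 0.0383), and its call was lost in 8 of the 9 cases in which a library was left out, the exception being the first siCyclinK#2 library. Near-identical finger arrays can share reads, so that values of single members are less certain than those of single-copy genes.

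Others with a known function did not pass the test. ZNF91, the repressor of SVA retrotransposons, had 0.441, 0.356 and 0.415 FPKM with siCtrl, 0.663, 0.859 and 0.569 with siCyclinK#1, and 0.754, 0.608 and 0.0392 with siCyclinK#2. The last of these rested on 13 reads, against 118 to 280 in the other libraries. With it the log2 fold change was 0.22 (adjusted p = 0.688), and without it 0.64 (adjusted p = 0.0255). Other members also swung within a group, such as ZNF264 (90, 683 and 120 reads with siCtrl) and ZNF791 (230, 837 and 198 with siCyclinK#1). ZNF224, a repressor of the aldolase A gene, was at 3.01, 2.76 and 2.47 FPKM (adjusted p = 0.441), and ZNF420, a KRAB regulator of p53, at 0.501, 0.791 and 0.691 (adjusted p = 0.19). ZNF331, an imprinted gene, was at 3.13, 3.67 and 4.17 FPKM (adjusted p = 0.0768), and the feature of ZNF417 and ZNF814 at 1.12, 1.59 and 1.27 (adjusted p = 0.125). ZNF582 was at 0.197, 0.527 and 0.302 FPKM (adjusted p = 0.0838), and without the second siCyclinK#2 library the adjusted p was 0.0323. ZNF382, which is often silenced in tumours, was not tested, with at most 0.0382 FPKM in any library.

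The genes were then grouped by position. Split where neighbouring starts were more than 1 Mb apart, they fell into 16 groups along the chromosome, numbered from the end of the short arm. Group 15 (chr19:51571298-53580269, from ZNF175 to ZNF331) had 9 of 14 tested features higher (64.3%) and none lower, with a median log2 fold change of 0.57. Over all features 17.0% were higher and 11.5% lower, and over all tested zinc finger features 26.8% and 4.35%. The share of group 15 was the highest of the groups with more than 1 tested feature, which was seen only from the counts and was not tested. All 14 held a KRAB pattern. Without the feature of ZNF836 and ZNF616, which the filter let in through siCyclinK libraries alone, 8 of 13 were higher and the median was 0.51. Those called were ZNF845 (1.20), ZNF765 (1.11), ZNF766 (1.04), the feature of ZNF836 and ZNF616 (0.98), ZNF480 (0.77), the feature of ZNF432 and ZNF841 (0.76), ZNF615 (0.64), ZNF350 (0.51) and ZNF160 (0.47). ZNF614 in the same group had -0.20 and was not called. A further 11 features of this group were too low to be tested. With 1 library left out the number higher was 6 to 9, the lowest without the first or the second siCtrl library, and the call of ZNF615 (adjusted p up to 0.0836) and that of ZNF836 with ZNF616 (up to 0.0586) were among those lost. The number was 8 under median-ratio rescaling and 7 under quantile normalization. It was 6 with limma-voom on recovered reads and 4 among features with a mean FPKM of at least 1, where fewer features could be tested.

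The other large groups had smaller shares of calls. Group 16 (chr19:55576770-58481230), the largest, had 10 higher and 2 lower of 39 tested, with a median of 0.32, and held ZNF837 and ZNF784 together. Group 12 (chr19:43525497-44500524) held ZNF227 and had 4 higher and 1 lower of 19, with a median of 0.24. Group 2 (chr19:7069444-9793180) had 5 higher, ZNF846 among them, and 1 lower of 13, with a median of 0.44. Group 9 (chr19:36182060-37817300) had 5 higher and 1 lower of 15 (4 higher of 14 without ZNF570), with a median of 0.41. Group 5 (chr19:19668796-23945159), which holds ZNF91, had 1 higher of 13, ZNF675, and 12 features too low to test. Group 3 (chr19:11483427-12640098) had 7 of 18 features tested and none called by limma over both siRNAs. The other 11, among them ZNF20, ZNF44, ZNF433, ZNF439 and ZNF440, were not tested. In the limma comparison of siCyclinK#1 alone, ZNF823 (adjusted p = 0.0205), ZNF627 (0.0386) and the feature joining ZNF490, ZNF443, ZNF709, ZNF564 and ZNF799 (0.0387) were higher. With siCyclinK#2 alone the feature of ZNF653 was (0.0291). Genes of a group are neighbours and close copies and are not independent of each other.

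**Figure D3:**
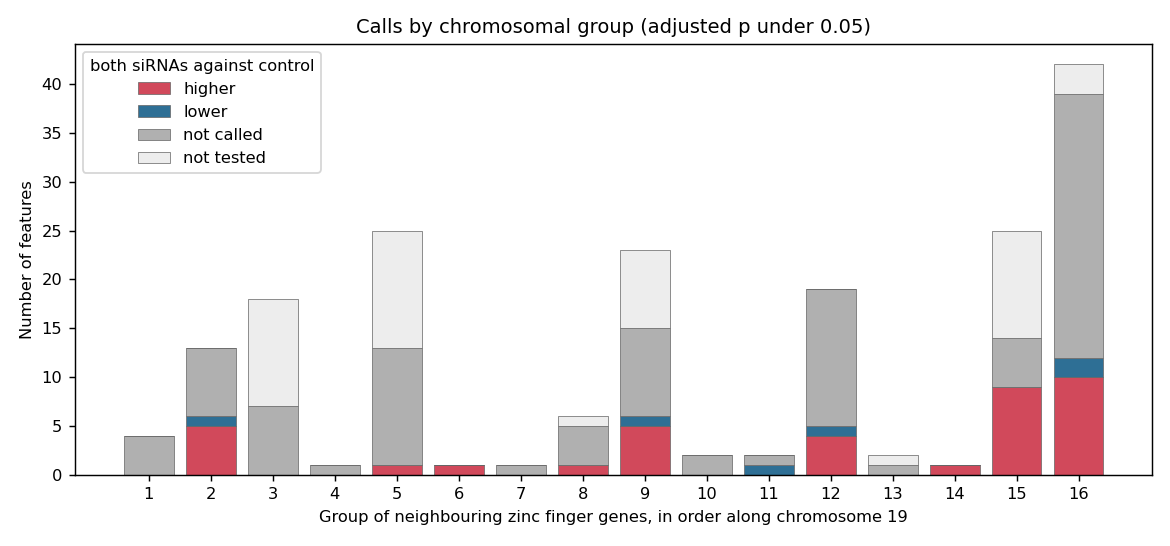
Bars give the number of features in each of the 16 groups of neighbouring zinc finger genes, in order along chromosome 19, split into called higher, called lower, not called and too low to test. Group 15 has 9 of 14 tested features higher (17.0% of all features were called higher), while groups 3 and 5 hold 23 of the 47 features that were not tested.

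Each siRNA was then compared with siCtrl, with all 9 libraries in a fit of 3 groups. With siCyclinK#1, 62 zinc finger features were higher and 9 lower (44.9% and 6.52%, beside 26.8% and 18.1% of all features, and 44.8% of all features in either direction), with a median log2 fold change of 0.39. Without the 2 features whose direction the filter set, 60 of 136 were higher. With siCyclinK#2, 38 were higher and 8 lower (27.5% and 5.80%, beside 19.8% and 15.2%, and 34.9% in either direction), with a median of 0.22, and 37 of 136 were higher without those 2. The numbered ZNF genes of other chromosomes had 41.4% higher and 11.7% lower with siCyclinK#1. With siCyclinK#2 they had 29.3% and 9.91%, so a raised share of higher calls was not particular to chromosome 19. Since both comparisons share the siCtrl libraries, they are not independent. By both comparisons 33 features were higher and 5 lower, and none went in opposite directions. The share of all features called by both was not counted, so no excess can be read from these numbers. On the scale of FPKM + 0.1, 2 features were past 3-fold at an unadjusted p under 0.01 with siCyclinK#1 (4.67% of all features were). There was 1 with siCyclinK#2 (1.94%) and none by limma between the siRNAs (1.53%). Scaling moved the siCyclinK#1 values. Under median-ratio rescaling the median of all features went from 0.10 to -0.00 and that of the zinc finger features from 0.39 to 0.27, so that their excess was 0.29 and 0.27, and the calls were 50 higher and 15 lower. Under quantile normalization they were 43 and 15, with an excess of 0.24. The map of called features gives each library.

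**Figure D4:**
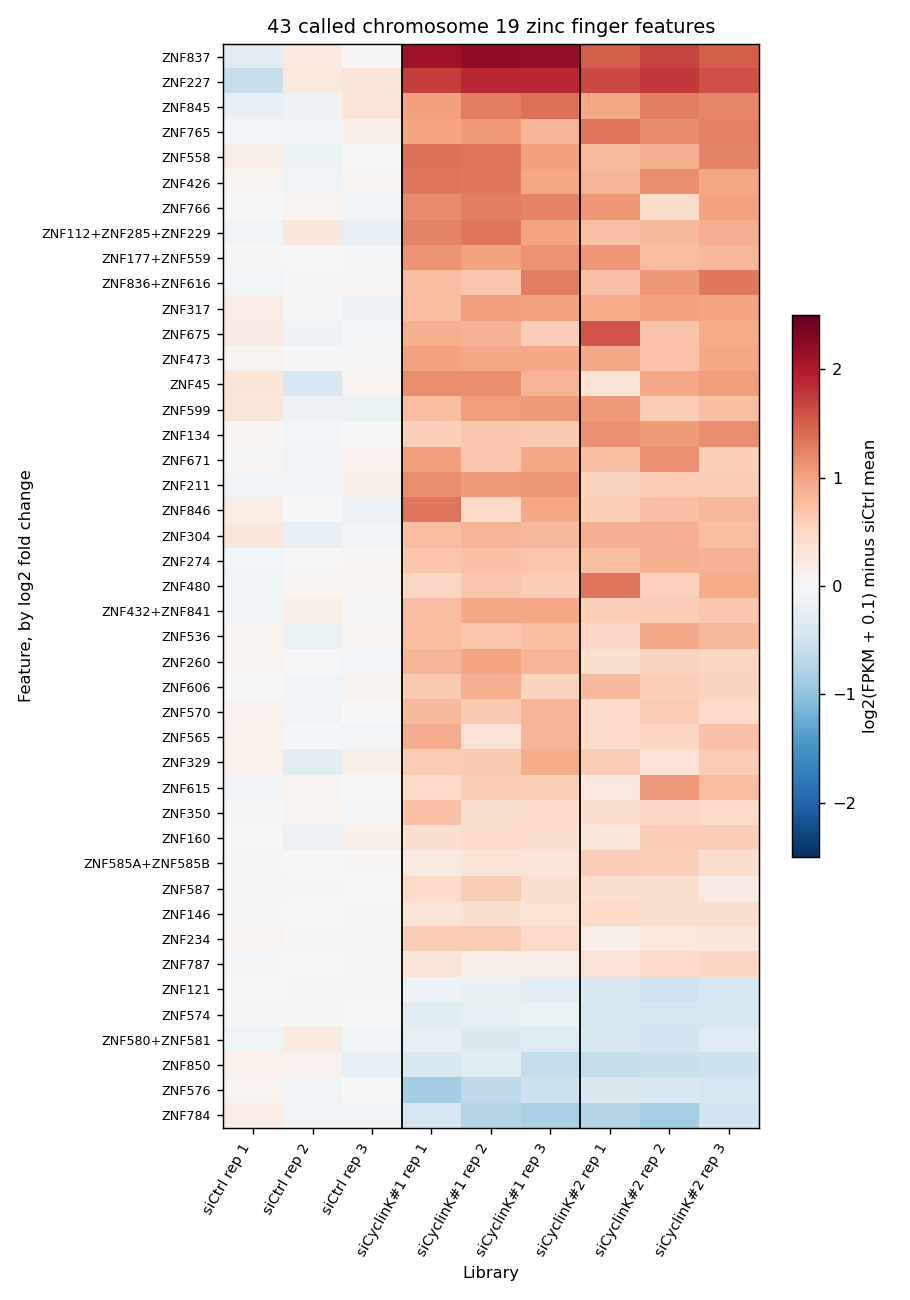
Rows are the 43 features called over both siRNAs, ordered by log2 fold change, and columns are the 9 libraries. Colour gives log2(FPKM + 0.1) minus the siCtrl mean, and the 37 upper rows are red in both siCyclinK groups and the 6 lower rows blue, with ZNF837 and ZNF227 the deepest.

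The siRNAs were compared with each other directly. At an adjusted p under 0.05, 24 zinc finger features were higher with siCyclinK#1 and 7 were higher with siCyclinK#2 (17.4% and 5.07%, beside 17.1% and 12.3% of all features, and 29.4% in either direction). This split rested on the scaling: it was 14 and 12 under median-ratio rescaling and 13 and 13 under quantile normalization. The count went from 31 to 20 without the first siCyclinK#2 library. The largest differences toward siCyclinK#1 were those of 2 features with a mean below 0.5 FPKM. ZNF333 had 0.822, 0.572 and 0.674 FPKM with siCyclinK#1 against 0.397, 0.337 and 0.322 with siCyclinK#2 (0.80, adjusted p = 0.0107), and ZNF554 had 0.587, 0.368 and 0.343 against 0.226, 0.212 and 0.201 (0.74, adjusted p = 0.0425). In both the siRNA groups did not overlap. Of features with higher means, ZNF416, a KRAB gene of 11 fingers, had 2.87, 3.10 and 3.09 FPKM with siCtrl, 4.37, 5.00 and 4.19 with siCyclinK#1 and 2.71, 2.70 and 2.82 with siCyclinK#2. Only the siCyclinK#1 libraries stood above siCtrl there, and the difference between the siRNAs was 0.70 on the log2 scale (standard error 0.08, adjusted p = 0.000224). ZNF428 differed by 0.67 in the same direction (adjusted p = 0.000688), the feature of ZNF358 by 0.73 (0.0349) and ZNF233 by 0.64 (0.0415).

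Differences in the other direction were seen in genes that siCyclinK#2 left higher. ZNF134 had 5.42, 4.96 and 5.29 FPKM with siCtrl, 7.92, 8.34 and 8.27 with siCyclinK#1 and 11.7, 11.0 and 11.9 with siCyclinK#2. It was raised by both siRNAs, and the 3 groups did not overlap (difference -0.49, adjusted p = 0.000178). ZNF614 had a mean of 3.75 FPKM with siCtrl, 2.69 with siCyclinK#1 and 3.91 with siCyclinK#2 (difference -0.53, adjusted p = 0.00132). ZNF699 differed by -0.58 (0.0119), and the feature of ZNF714 and a receptor pseudogene by -1.43 (0.0187), with 1.78, 0.703 and 0.673 FPKM in the siCyclinK#1 libraries and 3.20, 3.40 and 1.88 in the siCyclinK#2 libraries.

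KRAB proteins act through partners, and 24 genes of that machinery were read in the same fit. Over both siRNAs 7 were higher and 3 were lower (29.2% and 12.5%, beside 17.0% and 11.5% of all features). With 1 library left out, 7 to 11 of the 24 were called, so some of the calls below leaned on single libraries. TRIM28, the scaffold itself, had 114 FPKM with siCtrl, 93.1 with siCyclinK#1 and 110 with siCyclinK#2 and was not called over both (log2 fold change -0.17, adjusted p = 0.141). It was lower with siCyclinK#1 alone (-0.29, adjusted p = 7.98e-05), and the siRNAs differed by -0.24 (adjusted p = 0.000571). SETDB1, the methyltransferase that it recruits, was at 5.43, 5.60 and 5.77 FPKM (adjusted p = 0.551), and ATF7IP, a cofactor of SETDB1, rose from 3.30 to 5.65 and 4.69 (0.63, adjusted p = 0.00485). Among the HP1 genes, which encode readers of methylated H3 lysine 9, CBX1 rose from 29.6 to 44.6 and 57.3 FPKM (0.77, adjusted p = 0.00069) and CBX3 fell from 44.1 to 35.5 and 33.7 (-0.35, adjusted p = 0.00251). CBX5 was at 17.9, 9.68 and 15.4 FPKM and was not called over both (adjusted p = 0.0607), though it was lower with each siRNA in the fit of 3 groups (-0.88 and -0.21), and the siRNAs differed by -0.67 (adjusted p = 1.27e-05). CHD3, the NuRD helicase that binds TRIM28, had 10.6, 11.1 and 11.4 FPKM with siCtrl, 29.1, 28.5 and 29.4 with siCyclinK#1 and 24.8, 22.4 and 24.4 with siCyclinK#2 (1.25, adjusted p = 1.59e-05), while the feature with its paralog CHD4 was at 19.9, 20.1 and 19.7. The deacetylase gene HDAC1 rose with CHD3 (1.15, adjusted p = 1.48e-06).

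Among the remaining partners the methyltransferase genes went different ways. EHMT1 rose from a siCtrl mean of 1.82 FPKM to 3.07 with siCyclinK#1 and to 2.31, 2.24 and 2.29 in the siCyclinK#2 libraries (0.51, adjusted p = 0.0228), and SUV39H1 fell from 13.7 to 8.11 and 9.94 (-0.61, adjusted p = 0.00141). Their paralogs were not called over both and went in opposite directions with the 2 siRNAs. EHMT2 had 6.49 FPKM with siCtrl, 7.70 with siCyclinK#1 (log2 fold change 0.24, adjusted p = 0.00823) and 4.86 with siCyclinK#2 (-0.41, adjusted p = 0.000674). SUV39H2 had 4.40, 2.80 (-0.63, adjusted p = 0.000231) and 5.73 (0.38, adjusted p = 0.00646). The siRNAs differed by 0.65 in EHMT2 (adjusted p = 6.33e-05) and by -1.01 in SUV39H2 (adjusted p = 3.5e-05). Of the HUSH complex, which spreads H3 lysine 9 methylation, FAM208A (0.25, adjusted p = 0.0405) rose, MPHOSPH8 and PPHLN1 were not called, and MORC2, which works with it, fell (-0.40, adjusted p = 0.00396). ATRX rose (0.30, adjusted p = 0.0206). The proteins were not measured here.

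**Figure D5:**
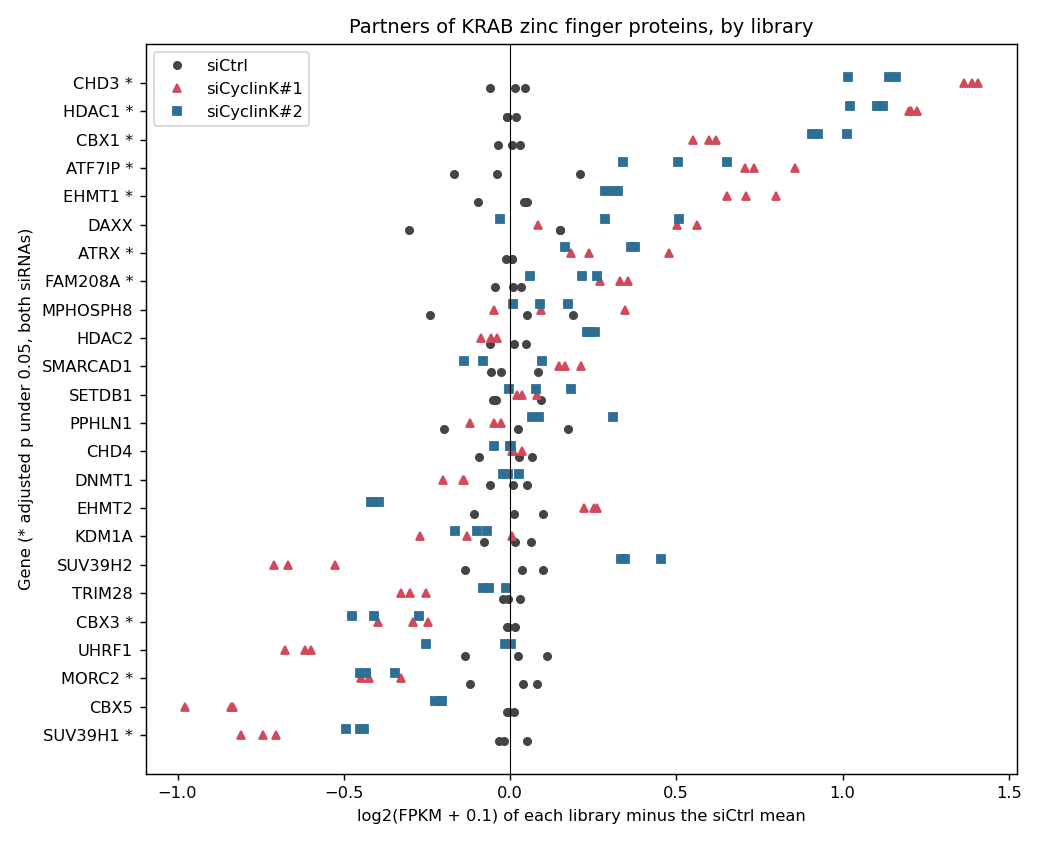
Each row is 1 of 24 genes for partners of KRAB zinc finger proteins, and each point is a library, placed at its log2(FPKM + 0.1) minus the siCtrl mean. A star marks the 10 genes called over both siRNAs, and CHD3 and HDAC1 lie farthest to the right, with SUV39H1 to the left.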

How the data were processed

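Total RNA of 9 A549 libraries was sequenced on an Illumina HiSeq X system as paired reads of 150 bases. For every library the authors ran StringTie 1.3.3b and deposited the FPKM of each feature. Which aligner and annotation release they used, and whether reads were stranded, is not given in the sources used here. Without strand, overlapping genes on opposite strands cannot be told apart.

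Of the 56252 features per file, the 25125 without a reference gene were left out first. All features in this text are thus those with a reference gene. Rows sharing a reference gene were added up and rows joining several genes were kept as 1 feature. Groups came from the sample labels. The main test was limma 3.58.1 (R 4.3.3, lmFit and eBayes with trend) on log2(FPKM + 0.1), over the 21048 features that reached an FPKM of 0.1 in 3 or more libraries, and p-values were adjusted by Benjamini-Hochberg over all of them. A fold change on that scale understates the change of low genes. Both siRNAs together were tested as 2 groups, so that differences between the siRNAs count as spread, and each siRNA in a fit of 3 groups. For single genes scipy 1.17.1 gave exact two-sided permutation tests. Fits were tested on simulated data. With GENCODE 29 exon lengths, 116 of 148 member features of 1 gene came out as whole reads (within 0.05) in all 9 libraries. This gave depths, read numbers and a limma-voom alternative added after seeing the data.

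KRAB and finger patterns were read in translated GENCODE 29 transcripts. The genes and lists were chosen with earlier results of these data known, and a second KRAB pattern and the longer promoter motif after values had been seen. Named genes were those past 3-fold, the 8 largest rises and falls among called features whose groups did not overlap and whose mean FPKM was 0.5 or more (5 falls qualified), the 6 highest, the 4 largest called differences each way between siRNAs at that mean, and a known-function list, of which ZNF93 was not analysed here. ZNF850, ZNF845, ZNF333, ZNF554, partners not called over both siRNAs and members named by position alone were named after their values were seen. Alternatives were other pseudocounts, filters, scalings, row handling, a replicate block and leaving out each library.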

Additional observations from a re-analysis of the deposited data

Results flagged for a closer look

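Among the members given above with values and the 24 partners, the following differed between siCyclinK#1 and siCyclinK#2 by the test of that difference (limma, adjusted p under 0.05). Values are log2 differences, siCyclinK#1 minus siCyclinK#2. Of the members, ZNF333 (0.80), ZNF554 (0.74), ZNF358 (0.73), ZNF416 (0.70), ZNF428 (0.67), ZNF233 (0.64), ZNF837 (0.60), ZNF260 (0.40), ZNF121 (0.25) and ZNF574 (0.20) were higher with siCyclinK#1. ZNF714 (-1.43), ZNF699 (-0.58), ZNF614 (-0.53), ZNF134 (-0.49) and ZNF787 (-0.25) were higher with siCyclinK#2. Of the partners, EHMT2 (0.65), EHMT1 (0.41), CHD3 (0.28), SMARCAD1 (0.22) and HDAC1 (0.13) were higher with siCyclinK#1, and SUV39H2 (-1.01), CBX5 (-0.67), UHRF1 (-0.54), CBX1 (-0.36), HDAC2 (-0.30), SUV39H1 (-0.29), TRIM28 (-0.24) and DNMT1 (-0.16) with siCyclinK#2. These 13 of 24 stand beside 29.4% of all features. ZNF837, ZNF260, ZNF134, ZNF787, EHMT1, CHD3, HDAC1 and CBX1 were called higher over both siRNAs, and ZNF121, ZNF574 and SUV39H1 lower, so that in these genes the siRNAs differed in size and not in direction. The cause of these differences was not tested.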

How the results depend on the processing

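Over both siRNAs the 43 calls became 26 of 76 testable features with limma-voom on recovered reads, and 33 to 45 under the 10 other settings that keep every library. Leaving out 1 library gave 30 to 44, and no call changed sign, while 16 of the 43 were lost at least once. With limma-voom the calls were 44 with siCyclinK#1, 26 with siCyclinK#2, 20 between the siRNAs and 2 of 5 for the partner list, where fewer features could be tested. Leaving out 1 library gave 61 to 69, 36 to 47, 20 to 31 (20 without the first siCyclinK#2 library) and, past 3-fold, 1 to 2 (1 without the first siCtrl library). With a pseudocount of 0.5 or 1 no feature was past 3-fold (0 and 0), since both shrink the fold of low genes. Of 759 values of 36 named features under 22 settings, 707 kept direction and call, 27 lost the call, 11 gained it and 14 reversed. The reversed values were those of ZNF699 (-0.068 under median-ratio rescaling, -0.14 under quantile normalization, -0.28 with siCyclinK#1 alone, and -0.072 to 0.12 without single libraries, below 0 in 5 cases at -0.018, -0.072, -0.051, -0.040 and -0.052), ZNF428 (-0.20), ZNF416 (-0.13), ZNF614 (0.062) and ZNF91 (-0.20) with siCyclinK#2 alone, ZNF714 (-0.25) with siCyclinK#1 alone, and ZNF224 (0.0071) without the third siCtrl library. None of these 7 was called over both siRNAs, and apart from the 2 separate siRNAs the cause was not tested. The replicate numbers did not pair the samples, with correlations of same-numbered deviations from -0.07 to 0.04. With a replicate block 34 features were called over both siRNAs, 64 with siCyclinK#1, 43 with siCyclinK#2 and 25 between them, and all 34 were also called without it. Depth limits the low members: the siCtrl values of ZNF845 (0.106, 0.112 and 0.201 FPKM) rested on 23, 23 and 42 reads.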

Other observations

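The antisense strand of siCyclinK#1 carries a seed that matches the letters GTGATAA. Of 105 tested members with a single gene and an annotated 3′ UTR, 20 held this site, as did 1204 of 11406 such features. The median log2 difference, siCyclinK#1 minus siCyclinK#2, was -0.05 in the 20 and 0.16 in the other members, and -0.10 and 0.09 over all such features. The UTRs with the site were longer (a median of 2489 bases, against 1511), and no test was made of this split. For siCyclinK#2, with the letters TACAGGT, 29 of the 105 members held the site, and the same difference was 0.13 with it and 0.14 without it, and 0.07 in each over all such features.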
